A study of Mus musculus with 24 samples.

Results

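Expression of 10 genes that regulate autophagy or the transcription factor Tfeb was examined in fasted mouse liver: Ulk1, Map1lc3a, Map1lc3b, Gabarapl1, Sqstm1, Bnip3, Tfeb, Tfe3, Fnip1 and Flcn. They were selected by name, with earlier results of these data known, from the 35275 genes of the deposited read counts, and each name matched 1 gene. RNA was sequenced from livers of male C57BL/6 mice, 8 to 10 weeks of age and food-deprived for 24 h, as 24 libraries in 6 groups of 4. Control mice, labelled wild type, were littermates that carried floxed Tsc1 and Cpt2 alleles, according to the methods of the study. In Tsc1 L-/-, Cpt2 L-/- and Tsc1Cpt2 L-/- (double knockout, DKO) mice, Albumin-Cre, driven by the promoter of a hepatocyte gene, was used to delete Tsc1, Cpt2 or both. The remaining groups were PPAR-a KO and Cpt2L-/- Ppara KO mice. The sources used here do not say in which cells Ppara was deleted or whether these mice had littermate controls. Loss of Tsc1 activates the kinase complex mTorc1, Cpt2 is required for the import of long-chain fatty acids into mitochondria, and Ppara drives the fasting response of the hepatocyte, so the groups asked how each of these, alone or combined, changed the fasted liver.

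Autophagy delivers cytoplasm and organelles to the lysosome and supplies the fasted liver with amino acids and lipids. The kinase Ulk1 starts the process. Proteins of the Atg8 family, among them Map1lc3a, Map1lc3b and Gabarapl1, are bound to the growing autophagosome membrane, where receptors such as Sqstm1 (also named p62, for ubiquitin-tagged cargo) and Bnip3 (for mitochondria) bring their cargo. Tfeb and Tfe3 are related transcription factors that switch on lysosomal and autophagy genes when mTorc1 is inactive. Flcn and its partner Fnip1 act on the Rag GTPases at the lysosome, through which mTorc1 holds Tfeb and Tfe3 in the cytoplasm. Transcript levels do not measure autophagic flux, and the location and phosphorylation of Tfeb were not analysed here.

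Total counts per library ranged from 14470968 to 20371204. The labels do not say that libraries of a group came from separate animals, so the tests measure the spread between libraries. Tsc1 was lower in Tsc1 L-/- livers than in control livers (24.5 ± 4.56 against 38.5 ± 1.32 CPM [counts scaled to the library total after TMM normalization], SD, n = 4, log2 fold change -0.65, edgeR adjusted p = 0.00491), and in DKO livers it was at 16.4 ± 1.24 CPM. Ppara was at 27.4 ± 16.3 CPM in PPAR-a KO and 50.8 ± 27.4 CPM in Cpt2L-/- Ppara KO livers, against 258.5 ± 28.6 CPM in control livers. Cpt2 was at 91.7 ± 10.4 CPM in the libraries labelled Cpt2 L-/- and 98.6 ± 7.04 CPM in control livers (log2 fold change -0.11, adjusted p = 0.605). Counts over a whole gene do not show the loss of single exons, so they do not check the Cpt2 L-/- label. The study reports the loss of Cpt2 protein in its models by Western blot. It does not say whether the blotted livers were those sequenced. The 5 hepatocyte markers, among them Alb and Ttr, summed to between 26460 and 77128 CPM in all libraries. No marker on the lists for hepatocytes, macrophages, endothelial cells, stellate cells and fibroblasts, cholangiocytes, lymphocytes and erythroid cells was at 0 in all libraries of a group, and lists whose sums did not overlap between groups are given beside the results. In the Cpt2L-/- Ppara KO group, replicate 1 stood apart, with a median correlation of 0.938 to the other libraries of its group, against 0.969 to 0.979 for the others, and with Cpt2 at 122.9 CPM against 31.4 to 39.1 CPM. In the PPAR-a KO group, Cpt2 was at 94.9 CPM in replicate 1 and at 39.8 to 51.4 CPM in the others.

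Levels were compared between genes as FPKM, which divides counts by gene length and library total. In the mean of the 6 groups, Sqstm1 was the most abundant of the 10 genes at 471 FPKM, followed by Gabarapl1 at 321 FPKM and Bnip3 at 207 FPKM. Map1lc3a (71.8 FPKM) and Map1lc3b (45.7 FPKM) were next, and Ulk1 (19.96 FPKM), Flcn (13.8 FPKM) and Fnip1 (11.7 FPKM) were lower. The transcription factors Tfe3 (5.11 FPKM) and Tfeb (4.48 FPKM) were the least abundant. Over the 24 libraries, the ranges of neighbours in this order overlapped, except that the lowest Bnip3 value (139.7 FPKM) was above the highest Map1lc3a value (126 FPKM). Among group means, Gabarapl1 varied most, 3.88-fold between Tsc1 L-/- and PPAR-a KO livers, and Sqstm1 varied 3.05-fold between DKO and control livers. Map1lc3b varied least, by 1.47-fold.

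**Figure D1:**
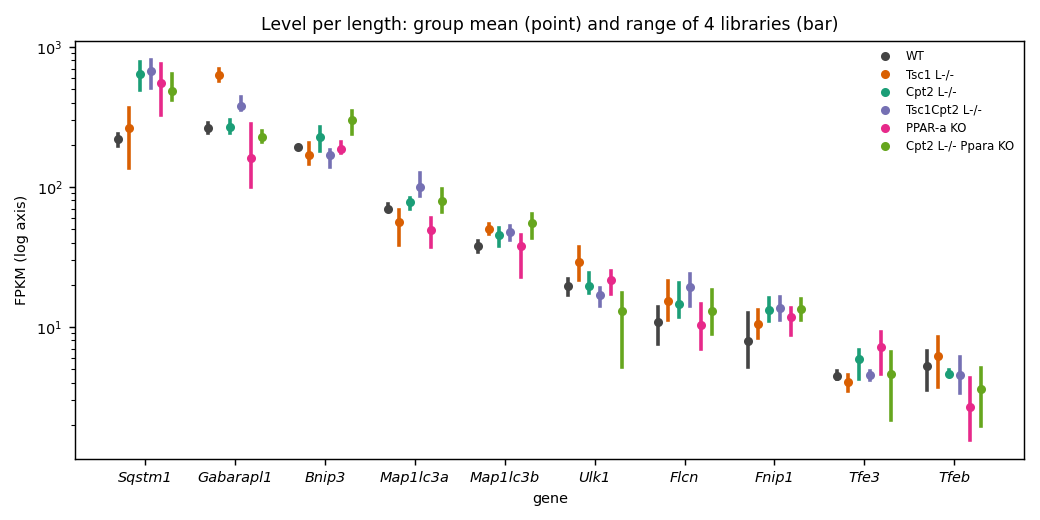
Levels of the 10 genes in FPKM (log axis) for each of the 6 groups, in the order of their mean level. Points are group means and bars span the 4 libraries. Sqstm1, Gabarapl1 and Bnip3 lay highest, between 99.1 and 810 FPKM in single libraries, and Tfe3 and Tfeb lay lowest, between 1.57 and 9.14 FPKM.

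In Tsc1 L-/- livers, Gabarapl1, which encodes an Atg8 protein, was the gene with the clearest difference from control. Gabarapl1 (ENSMUSG00000030161) lies on the forward strand of chromosome 6, from 129533200 to 129542331 in the coordinates of the deposited file, which match GRCm38. Library values were 472.1, 503, 483 and 485 CPM in control livers and 1305, 1068, 972 and 1067 CPM in Tsc1 L-/- livers. All Tsc1 L-/- libraries were above all control libraries, a 2.28-fold higher level (log2 fold change 1.19, SE 0.12, edgeR adjusted p = 1.48e-05). Ulk1 (ENSMUSG00000029512, reverse strand of chromosome 5, from 110784488 to 110810097) was at 122, 121, 96.4 and 88.8 CPM in control and at 121, 153, 182 and 149 CPM in Tsc1 L-/- livers. These groups overlapped at 1 Tsc1 L-/- library, and the level was 1.41-fold higher (log2 fold change 0.50, SE 0.14, adjusted p = 0.0407).

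These were 2 of 10 genes past an adjusted p of 0.05, where 6.64% of all 13641 genes tested passed (4.16% higher and 2.48% lower). The Gabarapl1 call held in every alternative. The Ulk1 call was lost without control replicate 3 (adjusted p = 0.114), control replicate 4 (0.132), or Tsc1 L-/- replicate 2 (0.0753), 3 (0.103) or 4 (0.0685), in the fit of both groups alone (0.105) and with all 24 libraries in the fit (0.371), and its log2 fold change stayed between 0.40 and 0.51 in these. The other 8 genes did not pass. Map1lc3a was the only member with all 4 Tsc1 L-/- libraries below all control libraries, at 40.5 to 74.1 against 75.4 to 87.6 CPM (log2 fold change -0.38, SE 0.16, adjusted p = 0.176). Tfeb itself was at 14.4 ± 3.95 CPM in Tsc1 L-/- and 12.7 ± 2.22 CPM in control livers (log2 fold change 0.18, SE 0.21, adjusted p = 0.677), and Sqstm1 at 712 ± 288 and 620.5 ± 102 CPM (0.20, SE 0.26, adjusted p = 0.719). Without control replicate 3, Fnip1 also passed (log2 fold change 0.60, adjusted p = 0.0266), as that library had the highest Fnip1 level of the control group (75.1 CPM against 38.0 to 46.0 CPM). Markers of stellate cells and fibroblasts summed to 162 to 240.1 CPM in Tsc1 L-/- and 252 to 329 CPM in control livers, and those of lymphocytes to 7.44 to 9.69 and 10.02 to 19.9 CPM, both without overlap. In bulk tissue, fewer cells of a type and less RNA per cell cannot be told apart, and the part of these shifts in the members' values was not tested.

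The 250 bases before the start site of Gabarapl1 are shown because this gene moved most with Tsc1. They lie at chr6:129532942-129533191, on the forward strand of GRCm38.p6 in RefSeq, and contain 46.8% G and C.
Gabarapl1: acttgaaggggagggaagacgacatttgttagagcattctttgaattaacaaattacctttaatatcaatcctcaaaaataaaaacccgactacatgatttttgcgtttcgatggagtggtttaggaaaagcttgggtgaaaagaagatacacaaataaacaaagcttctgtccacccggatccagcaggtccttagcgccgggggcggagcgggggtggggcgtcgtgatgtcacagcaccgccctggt

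**Figure D2:**
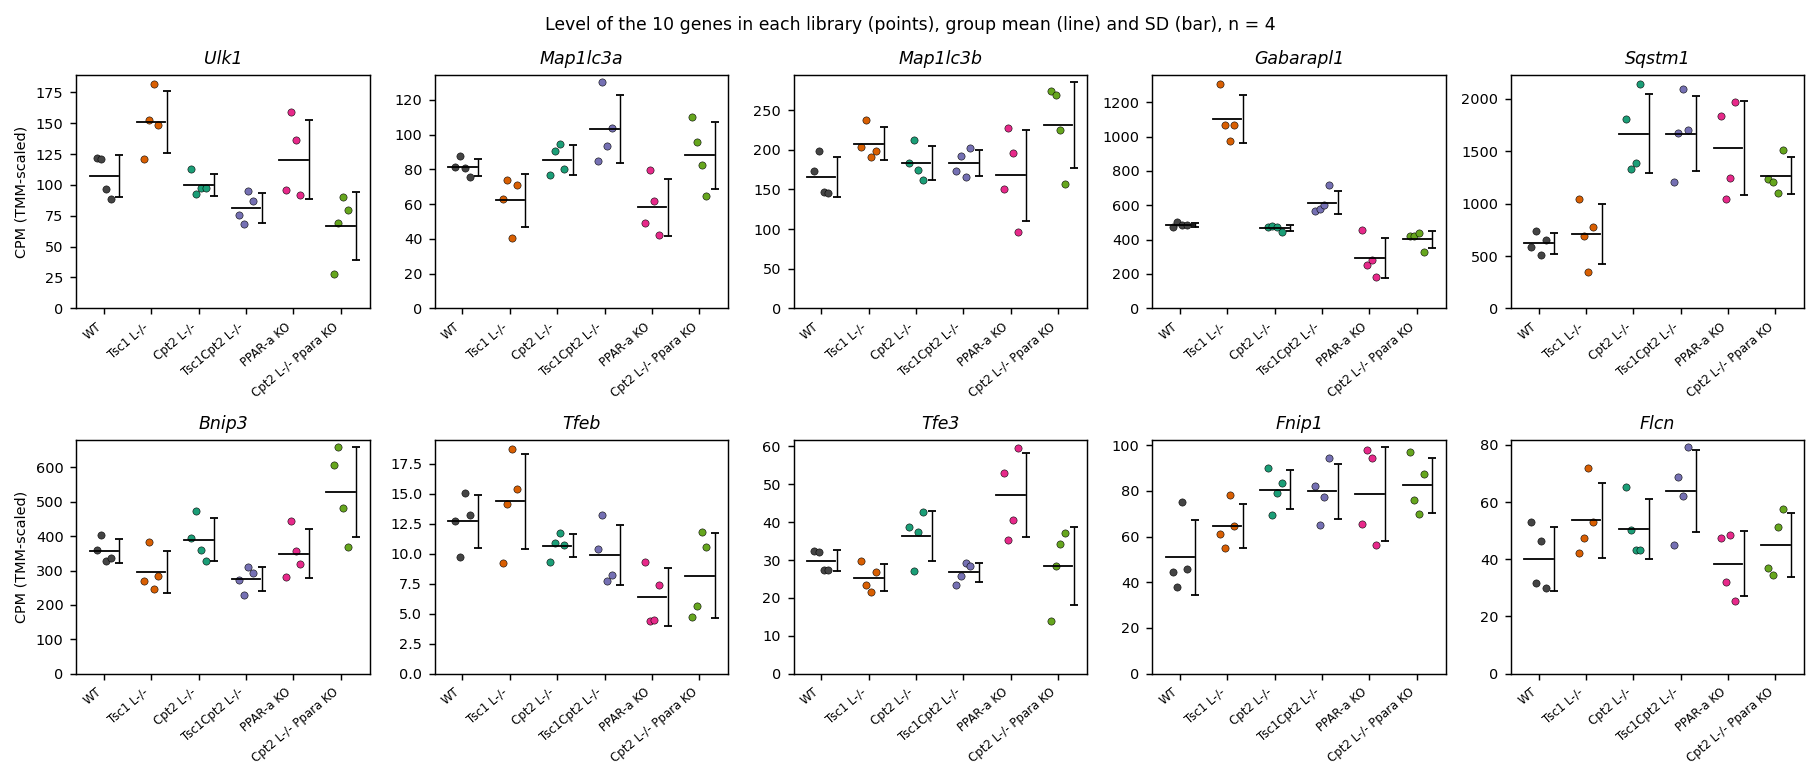
CPM of the 10 genes in each of the 24 libraries (points), by group, with the group mean (line) and SD (bar, n = 4). Gabarapl1 was between 972 and 1305 CPM in Tsc1 L-/- livers and at most 716 CPM in all other groups, and Sqstm1 was between 1049 and 2144 CPM in the libraries labelled Cpt2 L-/-, DKO, PPAR-a KO or Cpt2L-/- Ppara KO.

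In the libraries labelled Cpt2 L-/-, the members that differed from control were the cargo receptor Sqstm1 and the Flcn partner Fnip1, both higher. Sqstm1 (ENSMUSG00000015837, reverse strand of chromosome 11, from 50199366 to 50210827) had control values of 582, 744, 505 and 652 CPM, and reached 1811, 1334, 1391 and 2144 CPM in the libraries labelled Cpt2 L-/-. The groups did not overlap, and the level was 2.69-fold higher (log2 fold change 1.43, SE 0.26, adjusted p = 0.000556). Fnip1 (ENSMUSG00000035992, forward strand of chromosome 11, from 54438199 to 54518235) had control values of 44.5, 38.0, 75.1 and 46.0 CPM, and was at 89.8, 69.5, 78.9 and 83.2 CPM in those labelled Cpt2 L-/-. Only control replicate 3 reached into the Cpt2 L-/- range, and the level was 1.57-fold higher (log2 fold change 0.66, SE 0.18, adjusted p = 0.00927).

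Of all genes tested, 31% passed in this comparison (16.2% higher and 14.9% lower), so 2 of 10 is not above the background. Both calls held in every alternative, with adjusted p-values of at most 0.00264 for Sqstm1 and 0.0301 for Fnip1. Gabarapl1 and Ulk1 were close to control. Gabarapl1 was at 474, 478, 476 and 443 CPM (log2 fold change -0.06, SE 0.12, adjusted p = 0.75), and Ulk1 at 92.7 to 113 CPM (-0.10, SE 0.14, adjusted p = 0.637). Tfe3 was at 36.4 ± 6.66 against 29.8 ± 2.80 CPM (log2 fold change 0.29, SE 0.14, adjusted p = 0.122), and it passed without Cpt2 L-/- replicate 2 (0.41, adjusted p = 0.02), the library with the lowest Tfe3 level of its group (27.0 CPM). For Map1lc3a, Map1lc3b, Bnip3, Tfeb and Flcn the log2 fold changes lay between -0.26 and 0.33. The hepatocyte markers summed to 33437 to 56289 CPM in these libraries, below the control range of 59438 to 77128 CPM, and their part in the calls was not tested.

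The 250 bases before the start sites of Sqstm1 (chr11:50210821-50211070, reverse strand) and Fnip1 (chr11:54437929-54438178, forward strand) are shown. Both genes passed as higher than control in the libraries labelled Cpt2 L-/- and in DKO livers. Sqstm1 also passed in PPAR-a KO livers, and Cpt2L-/- Ppara KO livers were not tested against control. Capitals mark CACGTG, the E-box core bound by Tfeb and Tfe3 among other factors, which reads the same on both strands.
Sqstm1: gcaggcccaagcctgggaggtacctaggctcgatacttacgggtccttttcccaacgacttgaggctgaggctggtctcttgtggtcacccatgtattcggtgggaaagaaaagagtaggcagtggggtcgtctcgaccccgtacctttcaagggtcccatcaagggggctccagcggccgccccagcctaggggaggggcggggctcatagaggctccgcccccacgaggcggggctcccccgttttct
Fnip1: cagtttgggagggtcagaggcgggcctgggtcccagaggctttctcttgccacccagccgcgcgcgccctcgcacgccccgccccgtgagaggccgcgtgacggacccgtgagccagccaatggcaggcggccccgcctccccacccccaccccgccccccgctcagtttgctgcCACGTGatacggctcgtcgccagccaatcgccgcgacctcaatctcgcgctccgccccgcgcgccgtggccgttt

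Windows of 300 bases, 250 before and 50 after each start site, were searched on both strands for 5 motifs, for 9 of the 10 genes with 12 windows among them. CACGTG occurred in Fnip1, from -75 to -70 relative to the start site, and in Bnip3, from -108 to -103, against 7.15% of 32851 RefSeq windows of the same length. The antioxidant response element TGACNNNGC occurred in Map1lc3b, from 4 to 12, against 12.4% of windows. The CLEAR element (CACGTG with GT before and AC after it, so that each match also holds the E-box core), the FoxO site TGTTTAC and the PPAR response element (AGGTCA repeated with 1 base of any kind between) were not found in these windows, and occurred in 0.326%, 3.65% and 0.0396% of all windows. These matches describe letters in short windows and do not show binding.

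In DKO livers compared with control, 5 of 10 members passed, against 36.4% of all genes (19.3% higher and 17.1% lower). Sqstm1, Fnip1, Flcn and Gabarapl1 were higher and Ulk1 was lower. Sqstm1 was at 1210, 1674, 2094 and 1701 CPM, above every control library (2.72-fold, log2 fold change 1.45, SE 0.26, adjusted p = 0.00041). Fnip1 was at 82.0, 65.3, 77.3 and 94.4 CPM (1.58-fold, log2 fold change 0.66, SE 0.18, adjusted p = 0.00755), with the same overlap with control replicate 3. Both calls held in every alternative.

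The other 3 calls against control depended on single libraries. Gabarapl1 was at 567, 578, 603 and 716 CPM in DKO livers, above every control library, a 1.28-fold higher level (log2 fold change 0.36, SE 0.12, adjusted p = 0.0245). It was lost without control replicate 1 (0.0524) or 4 (0.0507), without DKO replicate 4 (0.0928), without the filter on low counts (0.0508) and with all 24 libraries (0.209). Flcn was at 44.9, 68.7, 62.3 and 79.1 CPM against 52.9, 31.6, 46.2 and 29.9 CPM in control livers, with overlap (log2 fold change 0.68, SE 0.22, adjusted p = 0.023), and was lost without control replicate 2 (0.067) or 4 (0.0693) or DKO replicate 2 (0.0573) or 4 (0.074). Ulk1 was at 75.4, 68.1, 95.4 and 87.0 CPM, overlapping control (log2 fold change -0.38, SE 0.14, adjusted p = 0.0447), and was lost without control replicate 1 (0.15), 2 (0.134) or 3 (0.0506), or DKO replicate 1 (0.106), 2 (0.137) or 4 (0.0586), without the filter (0.0618), in limma on FPKM (0.291) and with all 24 libraries (0.252). The hepatocyte markers summed to 26460 to 33045 CPM in DKO and 59438 to 77128 CPM in control livers, without overlap. The sums of the stellate and fibroblast markers, 151 to 191 against 252 to 329 CPM, and of the lymphocyte markers, 4.48 to 7.74 against 10.02 to 19.9 CPM, were also lower without overlap, and the macrophage marker sums, 169 to 285 and 233 to 395 CPM, overlapped. The part of these shifts in the members' values was not tested.

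Adding the loss of Tsc1 to Cpt2 L-/- livers gave 3 calls among the 10 members, against 18.3% of all genes (10.9% higher and 7.4% lower). Gabarapl1 was higher in all 4 DKO libraries than in all 4 libraries labelled Cpt2 L-/- (616 ± 68.4 against 468 ± 16.2 CPM, 1.34-fold, log2 fold change 0.42, SE 0.12, adjusted p = 0.0212). Bnip3, the mitophagy receptor, was lower, at 271, 228, 309 and 292 CPM against 394, 474, 361 and 328 CPM, without overlap (1.40-fold, log2 fold change -0.48, SE 0.15, adjusted p = 0.0339). Tfe3 was also lower, at 26.7 ± 2.61 against 36.4 ± 6.66 CPM, with overlap (log2 fold change -0.43, SE 0.14, adjusted p = 0.0398). Sqstm1 (1670 ± 362 against 1670 ± 381 CPM, log2 fold change 0.02, SE 0.26) and Fnip1 (79.7 ± 12.1 against 80.4 ± 8.52 CPM, 0.01, SE 0.18) were at nearly the same levels with and without Tsc1, though an SE of this size leaves room for a moderate difference.

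None of these 3 calls held in all alternatives, and none held with all 24 libraries in the fit (adjusted p = 0.219, 0.113 and 0.213). Gabarapl1 was lost without Cpt2 L-/- replicate 3 (0.0643) or 4 (0.0609) or DKO replicate 4 (0.07). Bnip3 was lost without Cpt2 L-/- replicate 1 (0.0629) or 2 (0.0996) or DKO replicate 1 (0.0715) or 2 (0.12), and in limma on FPKM (0.0551). Tfe3 was lost without Cpt2 L-/- replicate 1 (0.0876), 3 (0.0713) or 4 (0.129) or DKO replicate 1 (0.109), 2 (0.0979), 3 (0.0502) or 4 (0.0542), without the filter (0.0535) and in limma on FPKM (0.115). The hepatocyte marker sums of the DKO libraries, 26460 to 33045 CPM, lay below those of the Cpt2 L-/- libraries, 33437 to 56289 CPM, and their part in these values was not tested.

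Adding the loss of Cpt2 to Tsc1 L-/- livers gave 4 calls among 10, against 32.2% of all genes (16.9% higher and 15.2% lower), and all 4 held in every alternative. Sqstm1 was higher in DKO than in Tsc1 L-/- livers, where it was at 1040, 687, 343 and 778 CPM, without overlap (2.36-fold, log2 fold change 1.24, SE 0.26, adjusted p = 0.00157). Map1lc3a (ENSMUSG00000027602, forward strand of chromosome 2, from 155276297 to 155278073) was at 85.0, 130, 93.6 and 104 CPM in DKO and 63.0, 74.1, 40.5 and 70.9 CPM in Tsc1 L-/- livers (1.68-fold, log2 fold change 0.74, SE 0.16, adjusted p = 0.00179). Gabarapl1 was 1.78-fold lower in DKO than in Tsc1 L-/- livers (log2 fold change -0.83, SE 0.12, adjusted p = 4.99e-05). Ulk1 was 1.84-fold lower (log2 fold change -0.88, SE 0.14, adjusted p = 0.000154). In each of these 4 genes the DKO and Tsc1 L-/- libraries did not overlap. The share of all genes without such overlap was not computed. The sums of the markers of hepatocytes (26460 to 33045 in DKO and 37723 to 60755 CPM in Tsc1 L-/- livers), endothelial cells (155 to 263.8 and 277 to 329 CPM) and cholangiocytes (3.12 to 4.80 and 5.04 to 9.503 CPM) also did not overlap. The part of these markers in the members' values was not tested.

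The dependence of the Tsc1 effect on Cpt2 was tested as the interaction of both deletions. Gabarapl1 and Ulk1 passed, 2 of 10 members, both negative, against 2.38% of all genes (1.28% negative and 1.09% positive). For Gabarapl1, the log2 fold change with Tsc1 loss was 1.19 with Cpt2 and 0.42 in Cpt2 L-/- livers, a difference of -0.77 (SE 0.17, adjusted p = 0.0218). For Ulk1, it was 0.50 with Cpt2 and -0.28 in Cpt2 L-/- livers, a difference of -0.78 (SE 0.20, adjusted p = 0.048). The Gabarapl1 call was lost without DKO replicate 2 (adjusted p = 0.0545) and with all 24 libraries (0.263), and held in the other 21 of 23 alternatives. The Ulk1 call held in 7 of 23 alternatives and in 4 of the 16 that left out a library, those without control replicate 1, Tsc1 L-/- replicate 1, Cpt2 L-/- replicate 2 or DKO replicate 3. Without control replicate 2, 3 or 4 its adjusted p was 0.0502, 0.0772 and 0.0918, without Tsc1 L-/- replicate 2, 3 or 4 it was 0.069, 0.0684 and 0.0661, without Cpt2 L-/- replicate 1, 3 or 4 it was 0.0852, 0.0676 and 0.0759, and without DKO replicate 1, 2 or 4 it was 0.0859, 0.107 and 0.0587. It was also lost in limma on FPKM (0.0798) and with all 24 libraries (0.414). Map1lc3a had a difference of 0.67 that did not pass (SE 0.23, adjusted p = 0.12).

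**Figure D3:**
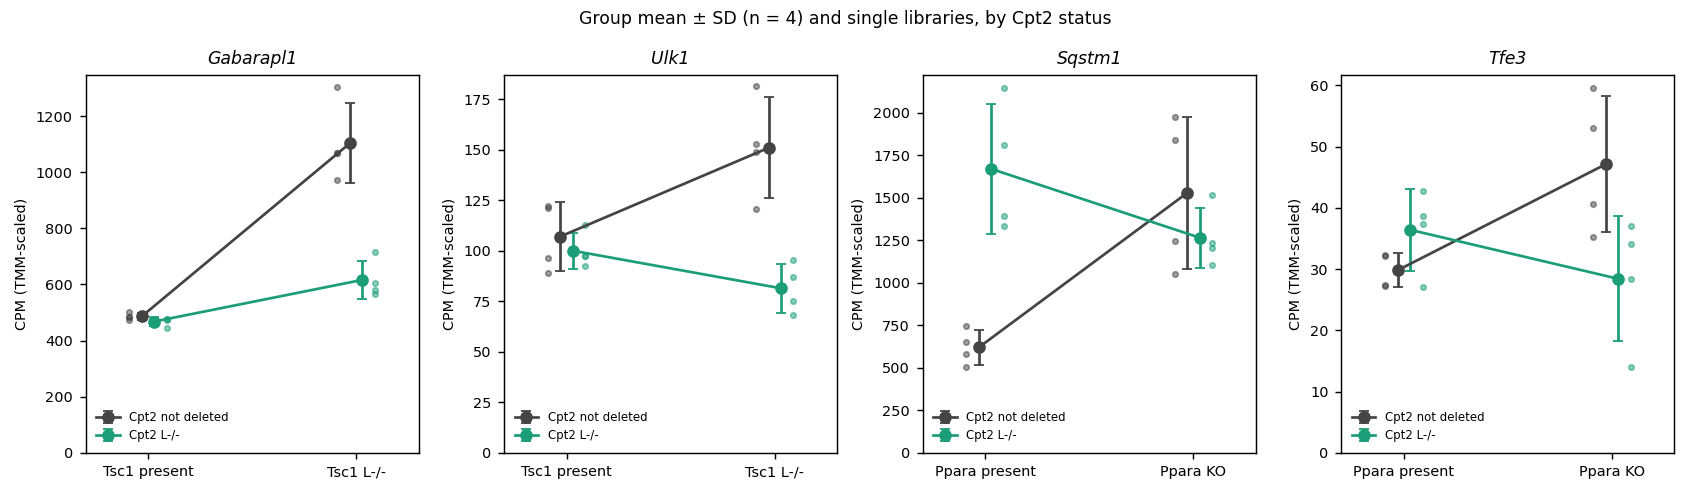
Group means ± SD (n = 4) and single libraries in CPM for 4 genes, with lines joining the groups that share Cpt2 status. Gabarapl1 and Ulk1 are shown by Tsc1 status and Sqstm1 and Tfe3 by Ppara status. Gabarapl1 rose from 486 to 1103 CPM with Tsc1 loss where Cpt2 was present and from 468 to 616 CPM in Cpt2 L-/- livers.

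In PPAR-a KO livers, Sqstm1 and Tfe3 were higher and Tfeb lower than in control, 3 of 10 members against 27.5% of the 12955 genes tested (14.8% higher and 12.7% lower). Sqstm1 was at 1842, 1049, 1248 and 1975 CPM, above all control libraries (2.46-fold, log2 fold change 1.301, SE 0.24, adjusted p = 0.00412), and this call held in every alternative. Tfe3 (ENSMUSG00000000134, forward strand of chromosome X, from 7762560 to 7775202) was at 53.1, 35.2, 40.7 and 59.5 CPM against 32.4, 32.1, 27.3 and 27.4 CPM (1.58-fold, log2 fold change 0.66, SE 0.18, adjusted p = 0.0241). Tfeb (ENSMUSG00000023990, forward strand of chromosome 17, from 47737030 to 47792419) was at 9.28, 4.42, 4.44 and 7.41 CPM against 12.7, 9.72, 15.1 and 13.2 CPM (1.98-fold lower, log2 fold change -0.99, SE 0.28, adjusted p = 0.0256). The libraries of both transcription factors did not overlap between the groups.

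The Tfe3 call was lost without control replicate 2 (adjusted p = 0.0527), 3 (0.0691) or 4 (0.075), in limma on FPKM (0.0794) and in the fit of 16 libraries (0.052), and the Tfeb call without control replicate 1 (0.0585), 3 (0.0733) or 4 (0.0672) or PPAR-a KO replicate 2 (0.0561) or 3 (0.0676). Gabarapl1 was at 454, 254, 283 and 180 CPM, below all control libraries, and did not pass (log2 fold change -0.74, SE 0.25, adjusted p = 0.0507). It passed without PPAR-a KO replicate 1 (-1.03, adjusted p = 0.00332), in DESeq2 (adjusted p = 0.0195), with all 24 libraries (0.00619) and in the fit of 16 libraries (0.0195). Fnip1 was at 65.4, 97.8, 94.1 and 56.5 CPM (log2 fold change 0.61, SE 0.25, adjusted p = 0.0928) and passed without control replicate 3 (0.0261) or PPAR-a KO replicate 4 (0.0496), with all 24 libraries (0.0184) and in the fit of 16 (0.0401). Map1lc3a was at 58.2 ± 16.5 CPM (log2 fold change -0.49, SE 0.19, adjusted p = 0.0772) and passed without PPAR-a KO replicate 2 (0.0147) and in limma on FPKM (0.0402 with a pseudocount of 1). Cholangiocyte markers summed to 12.4 to 29.2 CPM in PPAR-a KO and 4.77 to 10.1 CPM in control livers, and lymphocyte markers to 4.23 to 8.88 and 10.02 to 19.9 CPM, both without overlap, and their part in these values was not tested.

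Between Cpt2L-/- Ppara KO livers and the livers labelled Cpt2 L-/-, none of the 10 members passed in edgeR, against 13% of the 12936 genes tested (6.88% higher and 6.1% lower). The count was also 0 at an unadjusted p under 0.05, in DESeq2 and in all other alternatives. Sqstm1 was at 1233, 1206, 1106 and 1517 CPM in Cpt2L-/- Ppara KO livers, within or below the Cpt2 L-/- range (log2 fold change -0.40, SE 0.23, adjusted p = 0.248). Fnip1 was at 82.5 ± 12.0 against 80.4 ± 8.52 CPM (0.03, SE 0.16). Ulk1 was at 27.5, 68.8, 90.6 and 79.6 CPM, below all Cpt2 L-/- libraries (log2 fold change -0.59, SE 0.30, adjusted p = 0.196), with the lowest value in replicate 1, the library that stood apart. Its log2 fold change was between -0.78 and -0.33 over the alternatives. Gabarapl1 was also below all Cpt2 L-/- libraries, at 421, 422, 436 and 326 CPM (-0.23, SE 0.18, adjusted p = 0.404). Erythroid markers summed to 354 to 816 CPM in Cpt2L-/- Ppara KO and 125 to 342 CPM in Cpt2 L-/- livers, without overlap, and their part in these values was not tested.

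Between Cpt2L-/- Ppara KO and PPAR-a KO livers, again none of the members passed in edgeR, against 0.868% of the 12784 genes tested (0.462% higher and 0.407% lower). There were 4 at an unadjusted p under 0.05, namely Ulk1 (log2 fold change -0.84, SE 0.34), Map1lc3a (0.61, SE 0.25), Bnip3 (0.61, SE 0.27) and Tfe3 (-0.73, SE 0.30), with adjusted p-values between 0.127 and 0.156. DESeq2 and limma gave 0. In the fit of all 24 libraries and in that of 16 libraries, these 4 genes passed. Bnip3 was at 606, 658, 482 and 367 CPM in Cpt2L-/- Ppara KO livers, which was the highest group mean of the 6 (528 ± 130 CPM). Map1lc3b also had its highest group mean there (231 ± 54.2 CPM), with log2 fold changes of 0.33 (SE 0.21) and 0.48 (SE 0.30) in these comparisons, neither past the threshold. Marker sums in Cpt2L-/- Ppara KO livers were below those in PPAR-a KO livers, without overlap, for endothelial cells (129.7 to 227 against 248.6 to 299.2 CPM), stellate cells and fibroblasts (169 to 220.2 against 248 to 269 CPM) and cholangiocytes (3.26 to 5.32 against 12.4 to 29.2 CPM). They were above them for macrophages (309 to 426 against 240.2 to 303 CPM) and lymphocytes (11.1 to 13.1 against 4.23 to 8.88 CPM), and the part of these shifts in the members' values was not tested.

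The interaction of Cpt2 and Ppara, tested in the 16 libraries of control, Cpt2 L-/-, PPAR-a KO and Cpt2L-/- Ppara KO livers, passed for Sqstm1 and Tfe3, 2 of 10 members, both negative, against 24% of the 13615 genes tested (12% negative and 12% positive). The log2 fold change of Sqstm1 with Ppara loss was 1.301 with Cpt2 and -0.40 in Cpt2 L-/- livers, and the interaction was -1.69 (SE 0.34, adjusted p = 0.00271). It held in every alternative, with adjusted p-values of at most 0.00827. For Tfe3 the corresponding values were 0.66 and -0.36, and the interaction was -1.01 (SE 0.35, adjusted p = 0.0425). The Tfe3 call held in 9 of 23 alternatives. It was lost without control replicate 1 (0.0568), 2 (0.0571), 3 (0.0755) or 4 (0.078), Cpt2 L-/- replicate 1 (0.0665), 3 (0.0687) or 4 (0.0865), PPAR-a KO replicate 1 (0.0624) or 4 (0.0728) or Cpt2L-/- Ppara KO replicate 2 (0.0681), without the filter (0.0512) and in limma on FPKM (0.0788). Without Cpt2L-/- Ppara KO replicate 1, where Tfe3 was at 14.04 CPM, it still passed. The Tfe3 log2 fold change of -0.36 with Ppara loss in Cpt2 L-/- livers was between -0.51 and -0.14 over the alternatives.

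**Figure D4:**
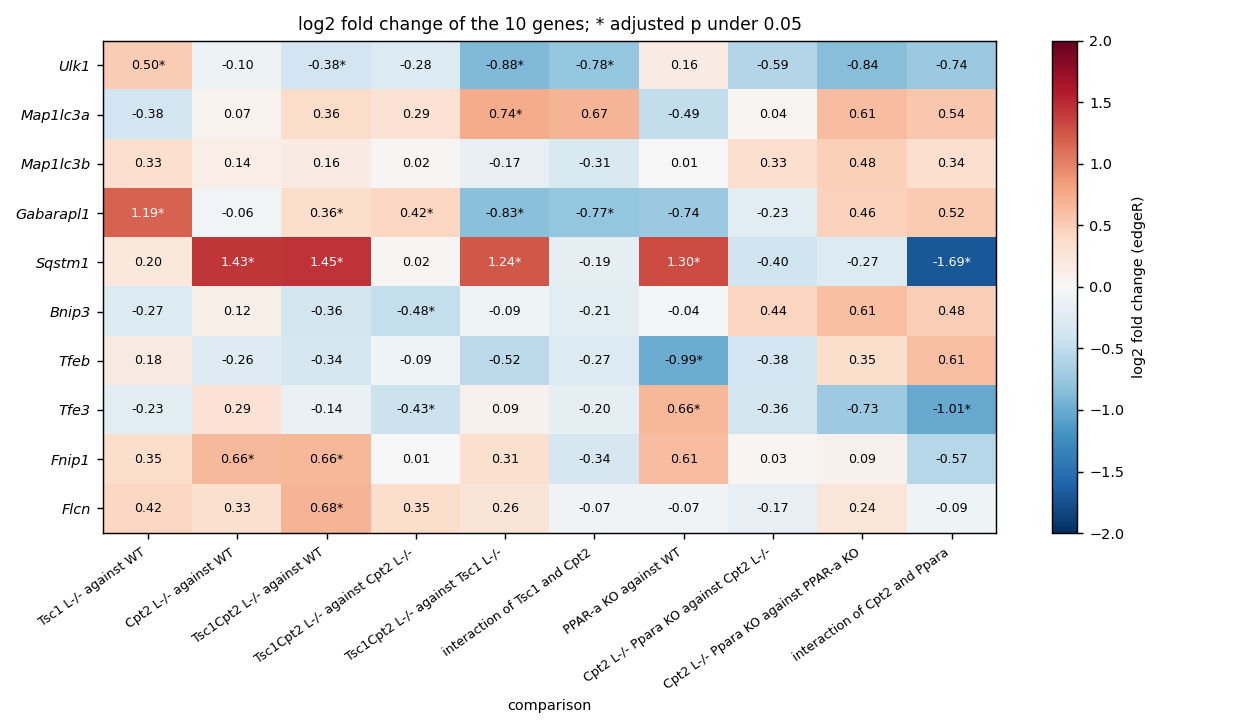
Log2 fold changes of the 10 genes in 10 comparisons (edgeR), with an asterisk where the adjusted p was under 0.05. Of 100 tests 23 passed, where between 0.868% and 36.4% of all genes tested passed in a single comparison. The tests share libraries and are not independent. Of the 23, 11 held in every alternative: Sqstm1 in 5 comparisons, Gabarapl1 in 2, Fnip1 in 2, and Map1lc3a and Ulk1 in 1 each.

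Comparisons with the control group share its 4 libraries, as the comparisons with each other group share that group's libraries, so their values are given side by side and were not counted as independent. Sqstm1 was 2.69-fold, 2.72-fold and 2.46-fold higher than control in Cpt2 L-/-, DKO and PPAR-a KO livers and 1.15-fold in Tsc1 L-/- livers (adjusted p = 0.719). Gabarapl1 was 2.28-fold and 1.28-fold higher than control in Tsc1 L-/- and DKO livers, 1.04-fold lower in Cpt2 L-/- and 1.66-fold lower in PPAR-a KO livers, of which the last 2 did not pass. Map1lc3b (ENSMUSG00000031812, forward strand of chromosome 8, from 121590361 to 121598760), the Atg8 gene most often used as a marker of autophagosomes, passed in none of the 10 comparisons, and its group means ranged from 166 to 231 CPM. In limma on FPKM it passed in Tsc1 L-/- against control livers (adjusted p = 0.0382) and in DKO against control livers (0.0281). An opposite-strand gene, Zcchc14, overlaps Map1lc3b and held 21098 counts against 75265, so reads may have been shared between them if strand was not used in counting.

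Levels of the members did not follow a shared order across groups. Bnip3 (ENSMUSG00000078566, reverse strand of chromosome 7, from 138890836 to 138909519) was highest in Cpt2L-/- Ppara KO livers, followed by Cpt2 L-/- (389 ± 62.7 CPM), control (357 ± 34.1 CPM), PPAR-a KO (349.5 ± 70.1 CPM), Tsc1 L-/- (296 ± 60.5 CPM) and DKO livers (275 ± 35.3 CPM), and each neighbouring pair of groups overlapped. Flcn (ENSMUSG00000032633, reverse strand of chromosome 11, from 59791408 to 59810016) was highest in DKO livers (63.7 ± 14.4 CPM) and lowest in PPAR-a KO livers (38.3 ± 11.4 CPM), and it passed only in DKO against control livers. Its partner Fnip1 was lowest in control livers (50.9 ± 16.5 CPM) and between 64.7 and 82.5 CPM in the other group means. Tfeb was highest in Tsc1 L-/- livers, where single libraries ranged from 9.22 to 18.7 CPM.

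For each member, the genes of most similar pattern were found among 13986 genes by Pearson correlation of log2 CPM over the 24 libraries, which share group and depth differences. The nearest for Sqstm1 were Kpnb1 (r = 0.947), Arhgef5 (0.940) and Srxn1 (0.935), and for Gabarapl1 they were Mtx3 (0.916), Slc8a3 (0.880) and Hrsp12 (0.878). For Map1lc3b they were Cox5b (0.922), Cisd1 (0.908) and Cox6a1 (0.882). Cox5b and Cox6a1 encode subunits of cytochrome c oxidase. Ulk1 was nearest to Baz2a (0.917), Tfe3 to Zc3h4 (0.894), Tfeb to Usp21 (0.875), Map1lc3a to Rab34 (0.866), Bnip3 to Ppp1cc (0.853), Fnip1 to Siah1a (0.816) and Flcn to Tmem150a (0.787).

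Other genes of the pathway were examined as a list of 87 genes in 9 groups by role, of which 85 were tested in most comparisons. In Tsc1 L-/- livers, 13 were higher and 1 was lower than in control (16.5% of those tested against 6.64% of all genes). Of the 18 lysosomal and other textbook targets of Tfeb, 9 were higher and none was lower, with 11 at an unadjusted p under 0.05, and their median log2 fold change was 0.56 against 0.01 for all genes. With both groups alone in the fit 5 were higher, and with all 24 libraries 6. Hexa, which encodes a lysosomal enzyme, rose from 70.4 ± 9.28 to 154 ± 59.7 CPM (log2 fold change 1.13, SE 0.19, adjusted p = 0.00128). Rragd, a Rag GTPase that Tfeb and Tfe3 are known to induce, rose from 1.94 ± 0.512 to 40.2 ± 17.4 CPM (log2 fold change 4.36, SE 0.29, adjusted p = 5.92e-07). Stbd1, a glycogen-binding cargo receptor, fell from 129 ± 24.5 to 54.3 ± 11.2 CPM (log2 fold change -1.24, SE 0.17, adjusted p = 0.000173). The other calls were on genes of the Rag GTPases, Ragulator and related factors (3 of 11 tested, Rragd included) and of the fusion machinery (1 of 9).

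In DKO livers compared with the livers labelled Cpt2 L-/-, 23 genes of the list were higher and 7 lower (35.3% against 18.3% of all genes). Among the Tfeb targets, 11 of 18 were higher and none was lower, and the count was between 10 and 12 in all alternatives. Rragd rose from 4.79 ± 0.377 to 65.6 ± 6.80 CPM (log2 fold change 3.79, SE 0.27, adjusted p = 3.84e-07). Gpnmb, a lysosomal glycoprotein that macrophages also make, rose from 20.2 ± 6.61 to 94.4 ± 27.6 CPM (log2 fold change 2.24, SE 0.34, adjusted p = 0.000677). The macrophage marker sums of these groups, 216 to 395 CPM in Cpt2 L-/- and 169 to 285 CPM in DKO livers, overlapped. The part of macrophages in the Gpnmb level was not tested. Gabarap and Gabarapl2, the other Atg8 genes, rose with log2 fold changes of 0.60 and 0.43, and Atg2a (log2 fold change -0.90, SE 0.15, adjusted p = 0.000713), Atg16l2 (-1.32, SE 0.25, adjusted p = 0.00188) and Tecpr1 (-0.66, SE 0.13, adjusted p = 0.00214) fell. Compared with control, 33 genes of the list were higher and 10 lower in DKO livers (50.6% against 36.4%), and 16 of the 18 Tfeb targets were higher and 1 lower. Gpnmb rose from 1.71 ± 0.626 to 94.4 ± 27.6 CPM (log2 fold change 5.79, SE 0.42, adjusted p = 2.87e-07) and Rragd from 1.94 ± 0.512 to 65.6 ± 6.80 CPM (5.08, SE 0.30, adjusted p = 1.06e-08). The lower target was Atp6v0d2, a subunit of the proton pump that acidifies the lysosome, at 0.128 ± 0.0943 CPM against 3.37 ± 1.54 CPM, near the limit of detection. Stbd1 fell from 129 ± 24.5 to 67.3 ± 2.69 CPM (log2 fold change -0.92, SE 0.17, adjusted p = 0.000317). Ulk2, a relative of Ulk1, fell from 61.2 ± 6.84 to 35.3 ± 2.84 CPM (log2 fold change -0.78, SE 0.13, adjusted p = 0.000203).

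In DKO livers compared with Tsc1 L-/- livers, 19 genes of the list were higher and 12 lower (36.5% against 32.2% of all genes). Of the Tfeb targets 7 were higher and 1 lower, with 4 to 8 higher and 1 lower over the alternatives, the fewest higher in the fit of all 24 libraries. Gpnmb rose from 2.57 ± 1.303 to 94.4 ± 27.6 CPM (log2 fold change 5.21, SE 0.40, adjusted p = 9.94e-07). The lower target was again Atp6v0d2, at 0.128 ± 0.0943 CPM against 1.67 ± 0.769 CPM (-3.63, SE 0.62, adjusted p = 0.000236, and -0.63 in limma on log2(FPKM + 1)). Smaller rises were those of Optn, a cargo receptor (0.72, SE 0.12, adjusted p = 0.000203), and Atp6v1h, a proton pump subunit (0.67, SE 0.12, adjusted p = 0.000295). Atg9a, a membrane protein that supplies lipid vesicles, fell (-0.65, SE 0.10, adjusted p = 0.000135). Atg14, a subunit of the PI3 kinase complex, was also lower (-0.64, SE 0.22, adjusted p = 0.0331), but 1 Tsc1 L-/- library reached 49.6 CPM in a group of 28.7 ± 14.004 CPM, and without replicate 3 of that group the log2 fold change was -0.24 (adjusted p = 0.173). It was also lost without any 1 of the DKO replicates (adjusted p between 0.0529 and 0.0753), in limma on FPKM (0.15) and in the fit of both groups alone (0.0997).

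In the interaction of Tsc1 and Cpt2, 1 of the targets passed in DESeq2 and 1 in limma on log2(FPKM + 1). In edgeR, none of the targets passed, with 3 at an unadjusted p under 0.05. Other genes of the list did, 4 of 85 tested and all negative (4.71% against 2.38% of all genes, of which 1.28% were negative), among them Atg2a (-1.22, SE 0.21, adjusted p = 0.00499), which was lost in 1 of 23 alternatives, the fit of all 24 libraries (0.165). Rb1cc1, a subunit of the Ulk1 complex (-0.68, SE 0.15, adjusted p = 0.026), held in 17 of 23 and was lost without Cpt2 L-/- replicate 4 (0.0548) or DKO replicate 1 (0.0503) or 2 (0.0585), in limma on FPKM (0.0514) and with all 24 libraries (0.114). Tecpr1, which takes part in the fusion of autophagosomes with lysosomes (-0.76, SE 0.18, adjusted p = 0.032), held in 13 of 23 and was lost without control replicate 2 (0.0577) or 4 (0.0588), Tsc1 L-/- replicate 2 (0.0542) or 4 (0.059), Cpt2 L-/- replicate 4 (0.0635) or DKO replicate 2 (0.0783) or 4 (0.0575), in limma on FPKM (0.0791) and with all 24 libraries (0.207).

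In the livers labelled Cpt2 L-/-, 22 genes of the list were higher and 13 lower than in control (41.2% against 31% of all genes), in each role but the other Atg8 genes. Atg2a, a lipid transfer protein of the growing membrane, rose from 87.4 ± 6.22 to 206 ± 23.8 CPM (log2 fold change 1.23, SE 0.15, adjusted p = 1.16e-05), Gpnmb rose from 1.71 ± 0.626 to 20.2 ± 6.61 CPM (3.54, SE 0.40, adjusted p = 1.65e-05), and Rragd from 1.94 ± 0.512 to 4.79 ± 0.377 CPM (1.29, SE 0.29, adjusted p = 0.00311). Over the alternatives the log2 fold change of Gpnmb was between 2.12 and 3.86 and that of Rragd between 0.52 and 1.48. The Atg4 protease gene Atg4a fell from 11.7 ± 1.18 to 7.04 ± 1.16 CPM (-0.74, SE 0.15, adjusted p = 0.00108), and Lamtor2, a subunit of the Ragulator that anchors the Rag GTPases, fell from 58.5 ± 4.14 to 33.9 ± 7.73 CPM (-0.79, SE 0.15, adjusted p = 0.000822). Of the Tfeb targets 6 were higher and 2 lower, with 2 to 8 higher and 1 to 2 lower over the alternatives, the fewest higher in the fit of all 24 libraries. Atp6v0d2, among the lower ones, fell to 0.178 ± 0.141 CPM, near the limit of detection, from a control level of 3.37 ± 1.54 CPM.

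In PPAR-a KO livers, 13 genes of the list were higher and 11 lower than in control (28.2% against 27.5%). Atg13, a subunit of the Ulk1 complex, rose from 68.2 ± 7.63 to 154 ± 38.5 CPM (log2 fold change 1.17, SE 0.20, adjusted p = 0.00262), Atg16l2 rose from 7.59 ± 2.12 to 53.1 ± 27.1 CPM (2.80, SE 0.36, adjusted p = 0.000662), and Gpnmb from 1.71 ± 0.626 to 7.39 ± 4.37 CPM (2.10, SE 0.45, adjusted p = 0.00767). The Gpnmb log2 fold change was between 0.93 and 2.38 over the alternatives. Lamtor2 fell from 58.5 ± 4.14 to 30.4 ± 7.98 CPM (-0.95, SE 0.20, adjusted p = 0.00683) and Atp6v0d2 from 3.37 ± 1.54 to 0.698 ± 0.302 CPM (-2.22, SE 0.45, adjusted p = 0.00592, and -0.80 in limma on log2(FPKM + 1)), and these 5 calls held in every alternative. Atg4c, an Atg4 protease gene, fell from 14.9 ± 2.20 to 6.55 ± 3.78 CPM (-1.17, SE 0.35, adjusted p = 0.0321), but was lost without any 1 of the control replicates (adjusted p between 0.0512 and 0.0838) or PPAR-a KO replicate 2 (0.0654), 3 (0.0763) or 4 (0.052). Of the Tfeb targets 2 were higher and 2 lower, with 1 higher without control replicate 1 or 3 and 3 lower without PPAR-a KO replicate 1 or in DESeq2.

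Between Cpt2L-/- Ppara KO livers and Cpt2 L-/- livers, 7 were higher and 8 lower of 84 tested (17.9% against 13%). Bcl2l13, a mitophagy receptor, fell from 96.3 ± 9.16 to 45.5 ± 4.50 CPM (log2 fold change -1.09, SE 0.15, adjusted p = 0.00233), and Rragd rose from 4.79 ± 0.377 to 11.5 ± 1.97 CPM (1.26, SE 0.19, adjusted p = 0.00336), and both held in every alternative. Of the other genes of the list called here, 4 are named by the rule on the largest changes, and their calls depended on single libraries. The Ragulator gene Lamtor5 was higher (0.95, SE 0.27, adjusted p = 0.0413) and was lost without any 1 of the Cpt2 L-/- replicates (0.0678 to 0.132) or Cpt2L-/- Ppara KO replicate 2 (0.0913) or 3 (0.0519), and in limma on FPKM (0.0514). Stbd1 was higher (0.83, SE 0.18, adjusted p = 0.017) and was lost without Cpt2 L-/- replicate 1 (0.0586), 2 (0.0543) or 4 (0.0663) or Cpt2L-/- Ppara KO replicate 2 (0.0514). Atg2a was lower (-1.14, SE 0.33, adjusted p = 0.0442) and was lost without any 1 of the Cpt2 L-/- replicates (0.0695 to 0.121) or Cpt2L-/- Ppara KO replicate 2 (0.0971). Psap, the precursor of the saposins of the lysosome, was lower (-0.96, SE 0.21, adjusted p = 0.0175) and was lost without Cpt2 L-/- replicate 3 (0.0643) or 4 (0.0503) or Cpt2L-/- Ppara KO replicate 2 (0.0583). Between Cpt2L-/- Ppara KO and PPAR-a KO livers, 2 of 85 were higher and none was lower (2.35% against 0.868% of all genes). They were Rragd (1.45, SE 0.27, adjusted p = 0.039) and Hexa (1.09, SE 0.22, adjusted p = 0.0474), and neither held without Cpt2L-/- Ppara KO replicate 1 (adjusted p = 0.059 and 0.071) or without PPAR-a KO replicate 2 (0.0567 and 0.102), 3 (0.142 and 0.146) or 4 (0.0721 and 0.0857) or Cpt2L-/- Ppara KO replicate 2 (0.096 and 0.107) or 3 (0.101 for both). In the interaction of Cpt2 and Ppara, 12 genes of the list were positive and 11 negative (27.1% against 24%), among them Lamtor4 (1.57, SE 0.34, adjusted p = 0.00426), Atg4a (1.46, SE 0.30, adjusted p = 0.00341), Atg16l2 (-2.76, SE 0.45, adjusted p = 0.00075) and Atg2a (-2.21, SE 0.41, adjusted p = 0.00167), all of which held in every alternative. Atp6v0d2 was positive (4.19, SE 0.76, adjusted p = 0.00149) and also held, but it was near the limit of detection in the libraries labelled Cpt2 L-/- (0.178 ± 0.141 CPM), and its value ranged from 1.05 in limma on log2(FPKM + 1) to 4.80 without Cpt2 L-/- replicate 2. Gpnmb was also negative (-1.75, SE 0.55, adjusted p = 0.0302) and held in 12 of 23 alternatives. It was lost without control replicate 1, 2 or 4, Cpt2 L-/- replicate 1 or 4, PPAR-a KO replicate 4 or Cpt2L-/- Ppara KO replicate 2 or 3 (adjusted p between 0.05003 and 0.0654) and without the filter (0.0508). It was also lost in limma on FPKM, at -0.64 with a pseudocount of 1 (0.305) and -1.42 with 0.1 (0.101).

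**Figure D5:**
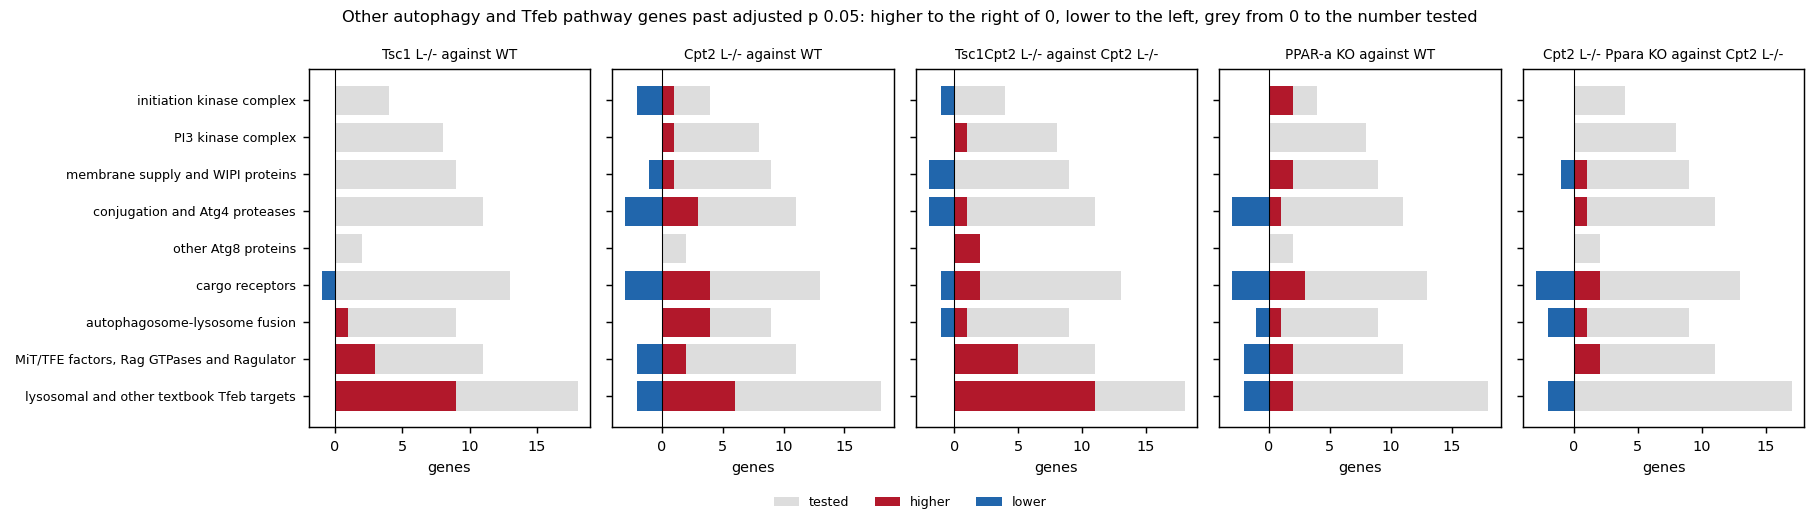
Numbers of other pathway genes past an adjusted p of 0.05 in 5 comparisons, by role, with higher genes to the right of 0, lower genes to the left and grey bars from 0 to the number tested. Of the 18 lysosomal and other Tfeb targets, 9 were higher with Tsc1 loss alone and 11 with Tsc1 loss in Cpt2 L-/- livers, and none was lower in either.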

How the data were processed

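Libraries were grouped by the genotype in the labels. The authors deposited read counts per gene, whole numbers without normalization, and FPKM, which recomputation from those counts, gene length and library total matched to within a relative difference of 4.63e-08. Per the submitters' processing notes, the tools named include STAR 2.5, HTSeq 0.6.1, Bowtie 0.12.2, TopHat, DESeq2 and edgeR, without roles, and the builds mm8 and mm9. The coordinates in the file matched GRCm38 instead (24919 of 34490 genes identical, 99.8% overlapping). Whether strand was used in counting is not given in the sources used here. Libraries were made with a stranded mRNA kit, and sequence context was taken from RefSeq (GRCm38.p6).

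Counts were tested in R 4.3.3 with the robust quasi-likelihood test of edgeR 4.0.16 after TMM scaling and filterByExpr (minimum count 10, minimum total 15), with Benjamini-Hochberg adjustment over all genes tested and a threshold of 0.05. The 16 control, single knockout and DKO libraries entered 1 fit, Ppara pairs were fitted with 8 libraries each, and the interaction of Cpt2 and Ppara with 16. CPM were scaled by TMM over 24 libraries, and log2 CPM used a prior count of 2. All 10 members passed the filter in every comparison. Overlap of libraries between groups was examined only for the members and listed genes, so no share over all genes is given beside it. Alternatives were RLE size factors, no filter, DESeq2 1.42.0, all 24 libraries or other libraries in the fit, the replicate number as a block, limma 3.58.1 on log2(FPKM + 1) and log2(FPKM + 0.1), and each library left out in turn. The edgeR test was also run on simulated data with known changes.

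The members and gene lists were chosen with earlier results of these data known. Besides the members, the text names, in each comparison, up to 3 pathway genes with the largest rise and up to 3 with the largest fall without overlap between groups, and the 3 genes most correlated with each member. A gene that this rule selects is not reported here. Gabarap and Gabarapl2 are outside this rule and were named after their values were seen. Duplicated libraries were looked for in 36 pairs, and none was found (lowest chi-square per gene 24.1).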

Additional observations from a re-analysis of the deposited data

Results flagged for a closer look

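In 60 groups of 4 libraries (10 genes in 6 groups), 2 had a library far from the rest of its group by Dixon's criterion, and chance alone gives about 1 in 20. Both concern Gabarapl1. In the libraries labelled Cpt2 L-/-, replicate 4 was at 443 CPM and the others at 474 to 478 CPM. In Cpt2L-/- Ppara KO livers, replicate 4 was at 326 CPM and the others at 421 to 436 CPM.

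For 4 members the interaction passed the threshold, 2 of 10 with Tsc1 and Cpt2 against 2.38% of all genes, and 2 of 10 with Cpt2 and Ppara against 24% of all genes, which is not above the background. The effect of Tsc1 loss was smaller in Cpt2 L-/- livers for Gabarapl1, with an interaction of -0.77 in log2 units (adjusted p = 0.0218 in edgeR). It turned from higher to not past the threshold for Ulk1, with an interaction of -0.78 (adjusted p = 0.048) that held in 7 of 23 alternatives. The effect of Ppara loss differed with Cpt2 for Sqstm1, by -1.69 (adjusted p = 0.00271), and for Tfe3, by -1.01 (adjusted p = 0.0425), the latter in 9 of 23 alternatives.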

How the results depend on the processing

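Of the 23 calls among 100 tests of a member in a comparison, 11 held in every alternative and 12 were lost in at least 1, and no called fold change turned its sign. These tests share libraries, and between 0.868% and 36.4% of all genes tested passed in a single comparison. The number of members past the threshold was 3 without a filter on low counts in DKO against control (5 as reported), and 1 in the interaction of Cpt2 and Ppara (2 as reported). In limma on FPKM with either pseudocount it was 1 in DKO against Cpt2 L-/- (3 as reported) and 1 in each interaction (2 as reported). In limma the median of all genes in DKO against control was shifted by 0.12 with a pseudocount of 1 and by 0.17 with 0.1. With all 24 libraries in the fit it was 1 in Tsc1 L-/- against control, 3 in DKO against control, 0 in DKO against Cpt2 L-/- and 0 in the interaction of Tsc1 and Cpt2, but 5 in PPAR-a KO against control (3 as reported) and 4 in Cpt2L-/- Ppara KO against PPAR-a KO (0 as reported). A fit of 2 groups alone gave 1 in Tsc1 L-/- against control, and a fit of 16 libraries gave 4 in Cpt2L-/- Ppara KO against PPAR-a KO. The cause of these shifts was not tested. Leaving out each library in turn gave 1 to 2 members in Tsc1 L-/- against control, 2 to 3 in Cpt2 L-/- against control, 2 to 5 in DKO against control, 1 to 2 in DKO against Cpt2 L-/-, 4 to 5 in DKO against Tsc1 L-/-, 0 to 2 and 1 to 3 in the interactions with Tsc1 and with Ppara, 1 to 4 in PPAR-a KO against control and 0 in both other comparisons.

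Correlations of same-numbered deviations lay between -0.26 and 0.17, and 6 of 32 were over 0.1. Those of differently numbered libraries were not computed for comparison, so this cannot tell whether replicate numbers pair the libraries. With the replicate number as a block, 1 member passed in Tsc1 L-/- against control, 1 in the interaction of Tsc1 and Cpt2 and 1 in that of Cpt2 and Ppara (2 each as reported), 4 in DKO against control (5), 2 in DKO against Cpt2 L-/- (3) and 4 in PPAR-a KO against control (3). The block lost Ulk1 in Tsc1 L-/- against control (adjusted p = 0.0651), DKO against control (0.0602) and the interaction of Tsc1 and Cpt2 (0.0705), and Tfe3 in DKO against Cpt2 L-/- (0.0552) and the interaction of Cpt2 and Ppara (0.0507). It gained Gabarapl1 in PPAR-a KO against control (0.0479). Over all genes, the number past the threshold changed by more than 1.5 times most often in Cpt2L-/- Ppara KO against PPAR-a KO (111 as reported), where it was 368 without a filter, 916 with the block, 2028 in DESeq2, 208 and 196 in limma, 4311 with all 24 libraries and 3475 in the fit of 16, and 2 to 725 with a library left out. In the interaction of Tsc1 and Cpt2 (324) it was 752 in DESeq2, 195 in limma with a pseudocount of 0.1, 65 with all 24 libraries and 150 to 403 with a library left out. In Cpt2L-/- Ppara KO against Cpt2 L-/- (1679) it was 2862 in DESeq2, 3239 with all 24 libraries and 625 to 2541 with a library left out. With all 24 libraries it was 400 in Tsc1 L-/- against control (906), 2798 in Cpt2 L-/- against control (4235) and 1065 in DKO against Cpt2 L-/- (2494), and the first was 466 with both groups alone. The lowest counts with a library left out were 583 in Tsc1 L-/- against control, 1428 in DKO against Cpt2 L-/- and 2321 in PPAR-a KO against control (3559). Depth limits genes of low level, such as Tfeb with 4.42 to 18.7 CPM in single libraries.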
